A study of Mus musculus with 24 samples.

Results

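The cytosolic ribosomal protein genes encode the proteins of the large and small subunits of the ribosome. They were taken by symbol, as Rpl or Rps followed by a number and at most 1 of the letters a, x, l or y, together with Rplp0, Rplp1, Rplp2 and Rpsa. Of the 12091 genes in the deposited expression table, 77 met this rule, 46 of the large and 31 of the small subunit. The rule took in Rps27l, a paralog of Rps27, and Rpl6l, which the annotation lists as a processed pseudogene. It left out Fau and Rack1, which also encode parts of the ribosome and were followed separately, while Rpl3l, Rpl10l, Rpl39l and Rps4l were not analysed here. On the GRCm38 annotation the members lay on 19 chromosomes, with 14 of them on chromosome 7, and their median transcript length was 729 bases, against 2764 bases over all genes of the table.

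Bulk RNA sequencing was done on mouse breast cancer models in which the secreted heparin-binding cytokine pleiotrophin (gene Ptn) was blocked or knocked down, with 24 samples in 8 groups of 3. In the 4T1 experiment, a triple-negative mammary cancer line of BALB/c origin was implanted into the mammary fat pad of female mice at 8 weeks of age, and in the MMTV-PyMT experiment FVB/N transgenic mice developed their own mammary tumors, because the mouse mammary tumor virus promoter drives the polyoma middle T oncogene in mammary epithelium. Tumor-bearing mice of both models received 15 mg/kg of either the control IgG C44 or 3B10, a mouse monoclonal antibody against pleiotrophin. The cell experiments used E0771, a mammary adenocarcinoma line from C57BL/6 mice, and E0771-LG, a line grown out of an E0771 lung metastasis, each carrying a pLKO.1-puro vector with either an EGFP-directed control hairpin (shCtrl) or a hairpin against Ptn (shPTN). The MMTV-PyMT mice were treated from 8 weeks of age and their tumors taken at 12 weeks, and the hairpin lines were kept under puromycin for 6 weeks. A single Ptn hairpin was used, so an effect of the knockdown and an effect of that hairpin cannot be told apart. The tumors are whole tissue, with stromal cells and leukocytes beside the cancer cells. The methods of the study speak of biological replicates, and the labels do not say whether the 3 samples of a cell group came from separate cultures, so p-values there are read as measuring the spread between these samples.

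Ribosomal proteins are made in matched amounts and assembled with ribosomal RNA in the nucleolus, after which the small subunit decodes mRNA and the large subunit forms peptide bonds. Their mRNAs are among the most abundant in growing cells, and most begin with a cytosine followed by a run of pyrimidines, the terminal oligopyrimidine (TOP) motif, through which mTOR and Larp1 control their translation. In breast and other cancers ribosome production is known to follow Myc activity and cell growth.

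The start sites of members are shown because this shared run of pyrimidines was not used to choose them. RefSeq promoter sequences for build GRCm38.p6 matched 56 of the 77 members by symbol. The search was for a C at the annotated start followed by at least 4 pyrimidines (C or T), on the strand of the gene alone. It found 13 of the 56 members (23.2%), 287 of 9390 genes of the table with a promoter entry (3.06%) and 813 of all 27025 genes with one (3.01%). A pyrimidine run of at least 8 bases through the start was held by 17 members (30.4%), against 5.12% and 4.59% of these genes. Some members that the search left out had long runs, among them Rpl7a (21) and Rpl27a (20), chosen after these were seen. Whether the annotated starts are those in use was not tested. Capitals mark the pyrimidine run through the annotated start, in windows read 5′ to 3′ on the gene's own strand at chr2:39005116-39005145 (minus) for Rpl35, chr9:120571503-120571532 (plus) for Rpl14, chr4:86857352-86857381 (minus) for Rps6, chr17:33955650-33955679 (minus) for Rps18 and chr7:141447637-141447666 (plus) for Rplp2. Rpl35 and Rpl14 were chosen for their runs after these were seen. The windows of Rplp0, chr5:115559453-115559482 (plus), and of 1 of the 2 annotated starts of Rps27l, chr9:66946072-66946101 (plus), held no such run.
Rpl35: ggccccgCCCTTTCCTCTTTCTCTCgaacc
Rpl14: ggcgggCCCTCTCTCTTCTCgctgagcgcc
Rps6: agcggaagtcgggCCTCTTTTTCgtgacgc
Rps18: acgtcacttccgCTCTCTCTTCCacaggag
Rplp2: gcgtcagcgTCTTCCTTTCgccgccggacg
Rplp0: tcttcgggtttcgaggaccgcctggttctc
Rps27l: cactcctccccgccgcctctatcccggaag

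The deposited values are on a log2 scale. In the 18 MMTV-PyMT, E0771 and E0771-LG samples they could be turned back into whole reads per gene, with 15.56 to 21.01 M reads per sample (median 18.16 M), and are given here as log2 counts-per-million values (CPM). The scale of the 4T1 values is not stated in the sources used here. Relative to the E0771-LG shCtrl means, their slopes on log2 length were -1.13 and -1.16, against 0.03 to 0.07 in most other groups. From this fall with transcript length the 4T1 values were taken as divided by length. Their depth is unknown, and their levels cannot be compared with the others, also where a figure shows both. Reads of ribosomal protein mRNAs can also match the many processed pseudogenes of these genes, so the level of any member is uncertain where the counting could split such reads.

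The median member was abundant in every group. In 4T1 tumors it was at percentile 95 (C44) and 94.9 (3B10) of all genes. There the lower quartiles of the members, 4.79 and 4.88, were close to the medians of all genes, 4.68 and 4.66. In E0771-LG shCtrl cells the member median was 9.19 log2 CPM, at percentile 98.3 of all genes, whose median was 4.98. In E0771 shCtrl cells the member median was at percentile 98.1. The quartiles of the members were 8.30 and 9.76 in E0771-LG shCtrl cells and 8.33 and 9.70 in E0771 shCtrl cells. Per kilobase of transcript, Rpl10, a late-joining protein of the large subunit, was the highest member in E0771 shCtrl cells at 11.71 (log2 CPM per kilobase), followed by Rpl13, chosen after its values were seen, at 11.38 and Rpl41, the smallest ribosomal protein, at 11.27. Rps10 was the lowest at 3.23, rank 6976 among all genes, below the next lowest member, Rpl13a, at 6.07. Rpl6l was too low for the filter in both tumor models, where it was not tested, and averaged 6.54 log2 CPM in E0771-LG shCtrl cells.

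The targeted gene was lower in every shPTN sample than in every shCtrl sample of its line. Ptn stood at 2.90, 2.18 and 2.28 log2 CPM in E0771 shCtrl cells and at -0.63, 0.25 and 0.53 in E0771 shPTN cells, a log2 fold change of -2.40 ± 0.37 (SE; limma adjusted p = 0.00159). In E0771-LG it stood at 3.65, 4.51 and 3.74 in shCtrl cells and at 1.42, 0.98 and 1.38 in shPTN cells, a log2 fold change of -2.71 ± 0.28 (SE; limma adjusted p = 6.30e-05). Ptn remained above its level in E0771 shPTN cells in all 3 E0771-LG shPTN samples, and the knockdown effect differed by -0.30 between the lines (limma adjusted p = 0.651).

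**Figure D1:**
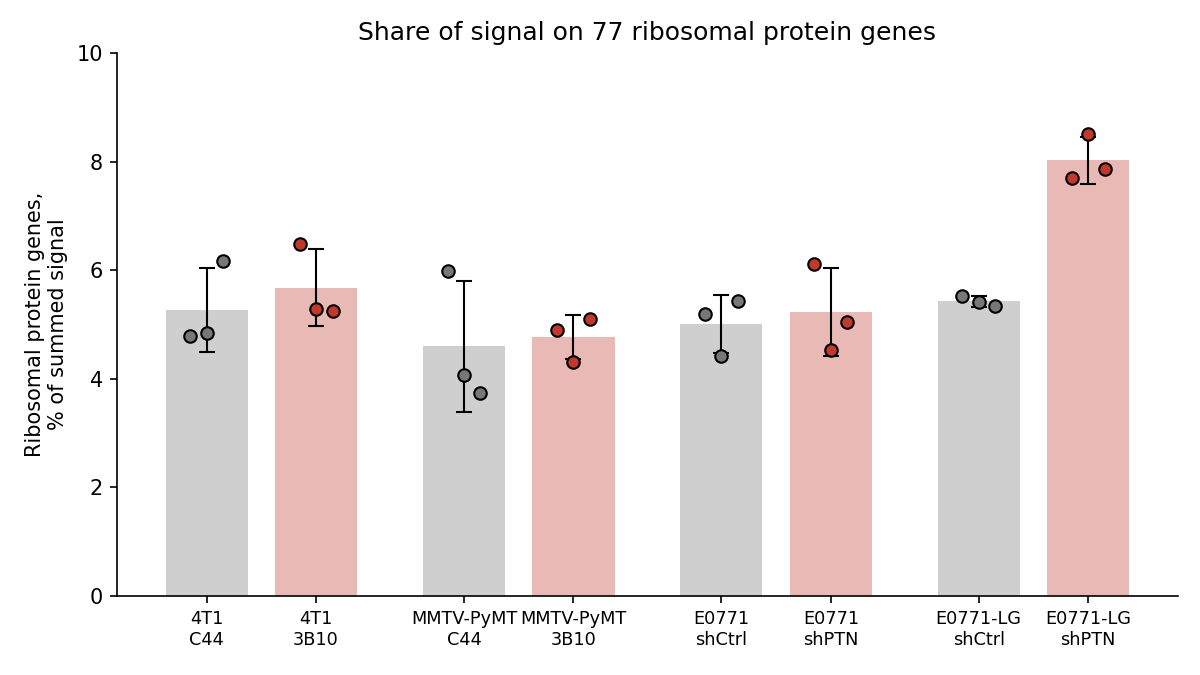
Percent of the summed signal of all genes that fell on the 77 ribosomal protein genes (vertical axis) in each of the 8 groups, with points for samples, bars for group means and error bars of 1 SD (n = 3). The 3 E0771-LG shPTN samples sit at 7.69%, 8.51% and 7.86%, above the 3 E0771-LG shCtrl samples at 5.53%, 5.41% and 5.34%.

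The comparison of shPTN with shCtrl in E0771-LG asks how the metastatic line differs when Ptn is low. Ribosomal protein mRNA made up a larger part of the RNA signal in the knockdown cells. The members held 5.53%, 5.41% and 5.34% of the summed signal in the shCtrl samples and 7.69%, 8.51% and 7.86% in the shPTN samples. All 3 shPTN samples lay above all 3 shCtrl samples, and the group means were 5.43% ± 0.0977 and 8.02% ± 0.432 (SD, n = 3 each; ratio 1.48, exact permutation test, two-sided, p = 0.1, with 0.1 the lowest value possible for groups of 3). By limma, 70 of the 77 members rose and 0 fell at an adjusted p under 0.05, where 24.3% of 10405 genes tested were higher and 22.1% lower. At an unadjusted p under 0.05, which 54.1% of all genes passed in either direction, the members also counted 70 higher and 0 lower. Voom weights on the recovered reads gave 70 and 0. The median log2 fold change was 0.63 over the members, from 0.06 to 1.72, and 0.05 over all genes tested. In bulk samples, fewer cells of a kind and less RNA per cell cannot be told apart.

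Transcript length moved with this result. Genes outside the members with transcripts under 500 bases had a median log2 fold change of 0.68, those of 500 to 1000 bases 0.51, of 1000 to 2000 bases 0.31, of 2000 to 4000 bases 0.02 and over 4000 bases -0.27. The members had medians of 0.78 (18 members), 0.60 (42), 0.54 (15) and 0.59 (2) in the first 4 of these classes. Within their class, 12 of 18, 29 of 42, 13 of 15 and 2 of 2 members lay above the median of the other genes. Slopes on log2 length were fitted to group means of log2 CPM minus those of E0771-LG shCtrl, which fixes that group at 0.00. They were -0.15 in E0771-LG shPTN cells and 0.03 and 0.04 in the E0771 groups. The shift toward short transcripts thus belonged to the same group as the high ribosomal protein share. After each sample was corrected for length and GC content, 21 members were higher and 8 lower, all 21 among the 70, with 16.4% of all genes higher and 20% lower, and the member median was 0.13 against -0.02 over all genes. The part of fragment length, RNA quality or library preparation in this shift was not tested.

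**Figure D2:**
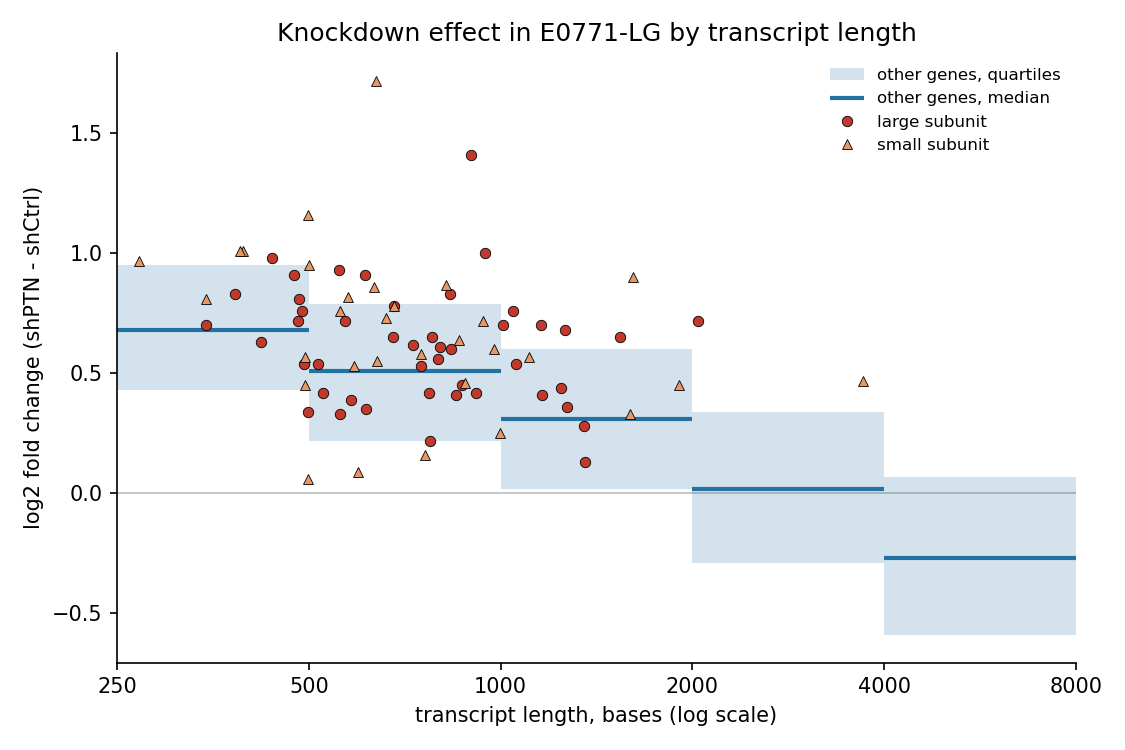
Log2 fold change of shPTN against shCtrl in E0771-LG cells (vertical axis) by transcript length in bases (horizontal log axis), with circles for large subunit and triangles for small subunit genes, and lines and bands for the median and quartiles of the other genes in each length class, the last class being open to longer transcripts. The medians of the other genes fall from 0.68 in the shortest to -0.27 in the longest class, and after correction for length and GC content 8 members were lower in place of 0.

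Among small subunit genes, 27 of 31 rose in E0771-LG shPTN cells (median 0.64), where 24.3% of all genes were higher and 22.1% lower. After correction for length and GC content 7 were higher and 4 lower, where 16.4% of all genes were higher and 20% lower. Rps15, a protein near the decoding centre that was chosen after its values were seen, as the member with the smallest adjusted p, read 9.19, 9.29 and 9.27 log2 CPM in shCtrl and 10.10, 10.31 and 10.18 in shPTN. The groups were far apart, with a log2 fold change of 0.95 ± 0.09 (limma adjusted p = 3.76e-05), which became 0.21 (adjusted p = 0.0558) after correction for length and GC content. Rps19, whose loss is a known cause of Diamond-Blackfan anemia, went from 9.14, 9.37 and 9.35 to 10.11, 10.26 and 10.08, again without overlap (0.86 ± 0.09), and became 0.15 after correction (limma adjusted p = 0.169). Rps4x, an X-linked core protein, rose by 0.60 (0.19 after correction, adjusted p = 0.0664) and Rps3, which lines the mRNA entry channel, by 0.45, and Rps3 was also higher after correction (0.30 ± 0.08, limma adjusted p = 0.0126). Rps6, the substrate of the S6 kinases, read 10.25, 9.96 and 9.95 in shCtrl and 10.42, 10.58 and 10.52 in shPTN. The lowest shPTN sample of Rps6 was above the highest shCtrl sample, with a log2 fold change of 0.46 ± 0.10 (limma adjusted p = 0.00348) that became 0.01 after correction (adjusted p = 0.929). Rps24, another Diamond-Blackfan gene, kept 0.69 of its 0.90 after correction and Rps20 read 0.61 after and 0.47 before it; both were chosen after their values were seen.

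The largest estimate of all members came from Rps27a, whose product is a fusion of ubiquitin with a small subunit protein. Its samples were widely spread, at 7.61, 7.53 and 8.78 log2 CPM in shCtrl and 10.04, 8.94 and 10.10 in shPTN. The groups did not overlap, but the log2 fold change of 1.72 ± 0.46 (limma adjusted p = 0.0271) lost its call without shCtrl replicate 1 (adjusted p = 0.144), shCtrl replicate 2 (0.138), shPTN replicate 1 (0.0836) or shPTN replicate 3 (0.0673), and after correction for length and GC content (1.19, 0.0529). Rps10, a protein of the small subunit head, was low in this table, at 0.31, 1.12 and 1.60 in shCtrl and 2.43, 2.40 and 1.70 in shPTN. Its log2 fold change of 1.16 ± 0.38 (limma adjusted p = 0.0282) was not called without shCtrl replicate 1 (0.82, adjusted p = 0.0663), shPTN replicate 1 (1.04, 0.0924) or shPTN replicate 2 (1.05, 0.112), with quantile normalization (0.79, 0.0922) or after correction (0.46, 0.331).

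Rps27 has a paralog, Rps27l, which p53 is known to induce, and the difference between the 2 genes was not tested. Rps27 read 7.80, 7.40 and 8.08 in shCtrl and 8.49, 8.74 and 8.48 in shPTN, a log2 fold change of 0.81 ± 0.16 (limma adjusted p = 0.0028) that lost its call after correction for length and GC content (0.17, adjusted p = 0.342) and in the joint fit of 18 samples (0.0941). Rps27l read 7.56, 7.14 and 7.42 in shCtrl and 7.38, 7.49 and 7.43 in shPTN, so the groups overlapped (0.06 ± 0.11, limma adjusted p = 0.683), with -0.06 without shCtrl replicate 2. Rps14, required for maturation of the small subunit RNA, overlapped as well, at 9.91, 9.71 and 9.56 against 9.65, 9.96 and 9.86 (0.09 ± 0.11, limma adjusted p = 0.506), and read -0.04 with quantile normalization. After correction for length and GC content, Rps14 (-0.52 ± 0.11, limma adjusted p = 0.0055) and Rps27l (-0.49 ± 0.11, limma adjusted p = 0.00722) were the 2 lowest members. Rpsa, also known as a laminin receptor precursor, read 11.14, 10.92 and 10.76 against 11.13, 11.38 and 11.30 and was called at 0.33 ± 0.11 (limma adjusted p = 0.0249) although its groups overlapped. That call was lost without shCtrl replicate 3 (0.24, adjusted p = 0.101), shPTN replicate 2 (0.27, 0.117) or shPTN replicate 3 (0.32, 0.087) and with quantile normalization (0.13, 0.268), and the estimate was -0.02 after correction.

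Of the large subunit genes, 43 of 46 rose (median 0.62), where 24.3% of all genes were higher and 22.1% lower. After correction for length and GC content 14 were higher and 4 lower (Rpl28, Rpl29, Rpl8 and Rplp1), against 16.4% and 20% of all genes. Rpl22, an RNA-binding protein known to repress its paralog Rpl22l1, read 8.37, 8.30 and 8.38 in shCtrl and 9.18, 9.32 and 9.27 in shPTN. The 2 groups were tight and well apart (0.91 ± 0.08, limma adjusted p = 4.23e-05), and Rpl22 was still higher after correction (0.33 ± 0.08, adjusted p = 0.0121). Rpl5 and Rpl11, which together carry a small ribosomal RNA into the large subunit and can bind Mdm2, were both without overlap. Rpl5 read 9.96, 9.98 and 9.87 against 10.58, 10.74 and 10.66 (0.72 ± 0.08, limma adjusted p = 9.51e-05), and Rpl11 read 8.72, 8.71 and 8.90 against 9.61, 9.69 and 9.54 (0.83 ± 0.09, limma adjusted p = 8.07e-05). After correction Rpl5 kept 0.62 ± 0.08 and Rpl11 0.36 ± 0.09 (limma adjusted p = 2.90e-04 and 0.0132). Rpl21 had the second largest estimate, at 6.25, 7.28 and 6.88 in shCtrl and 8.09, 8.35 and 8.21 in shPTN. Its groups did not overlap either (1.41 ± 0.25, limma adjusted p = 0.00383; 0.92 ± 0.21 after correction, adjusted p = 0.00933).

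Rpl10 rose by 0.56, which lost its call after correction (0.09, limma adjusted p = 0.37), Rpl13a, a protein also known for silencing of inflammatory mRNAs, by 0.76 (0.34 after correction, adjusted p = 0.0255) and Rpl3, at the peptidyl transferase centre, by 0.28. The Rpl3 call was lost without shCtrl replicate 3 (0.24, limma adjusted p = 0.0627), shPTN replicate 2 (0.26, 0.069) or shPTN replicate 3 (0.27, 0.0681) and with quantile normalization (0.04, 0.708), and its estimate was -0.03 after correction for length and GC content. The stalk that recruits translation factors is formed by Rplp0, Rplp1 and Rplp2, whose values were not tested against each other. Rplp2 read 8.91, 9.12 and 9.16 in shCtrl and 9.68, 9.82 and 9.57 in shPTN (0.63 ± 0.10), and Rplp1 read 10.37, 10.47 and 10.40 against 10.74, 10.83 and 10.68 (0.34 ± 0.08), both without overlap and both called by limma (adjusted p = 6.61e-04 and 0.00488). The Rplp1 call was lost with quantile normalization (0.20, adjusted p = 0.055) and in the joint fit of 18 samples (0.284). Rplp0, often used as a reference gene, overlapped, at 11.66, 11.45 and 11.41 against 11.61, 11.68 and 11.62 (0.13 ± 0.08, limma adjusted p = 0.214), but was called without shCtrl replicate 1 (0.21, adjusted p = 0.014). After correction the 3 stalk genes read -0.18 (Rplp0), -0.39 (Rplp1) and -0.08 (Rplp2).

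Members not called in E0771-LG cells included, beside Rps27l, Rps14 and Rplp0, also Rpl17, Rpl7a and Rps12, which were chosen after their values were seen. Rpl17, Rpl7a and Rps12 were spread over a wide range within groups, with SEs of 0.46, 0.31 and 0.20 around 0.22, 0.42 and 0.45. Rps12 was called without shCtrl replicate 1 (0.67, limma adjusted p = 0.00127) and Rpl7a without shPTN replicate 3 (0.72, adjusted p = 0.0267), while Rpl17 read 0.00 without shCtrl replicate 1 and -0.28 without shPTN replicate 3.

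**Figure D3:**
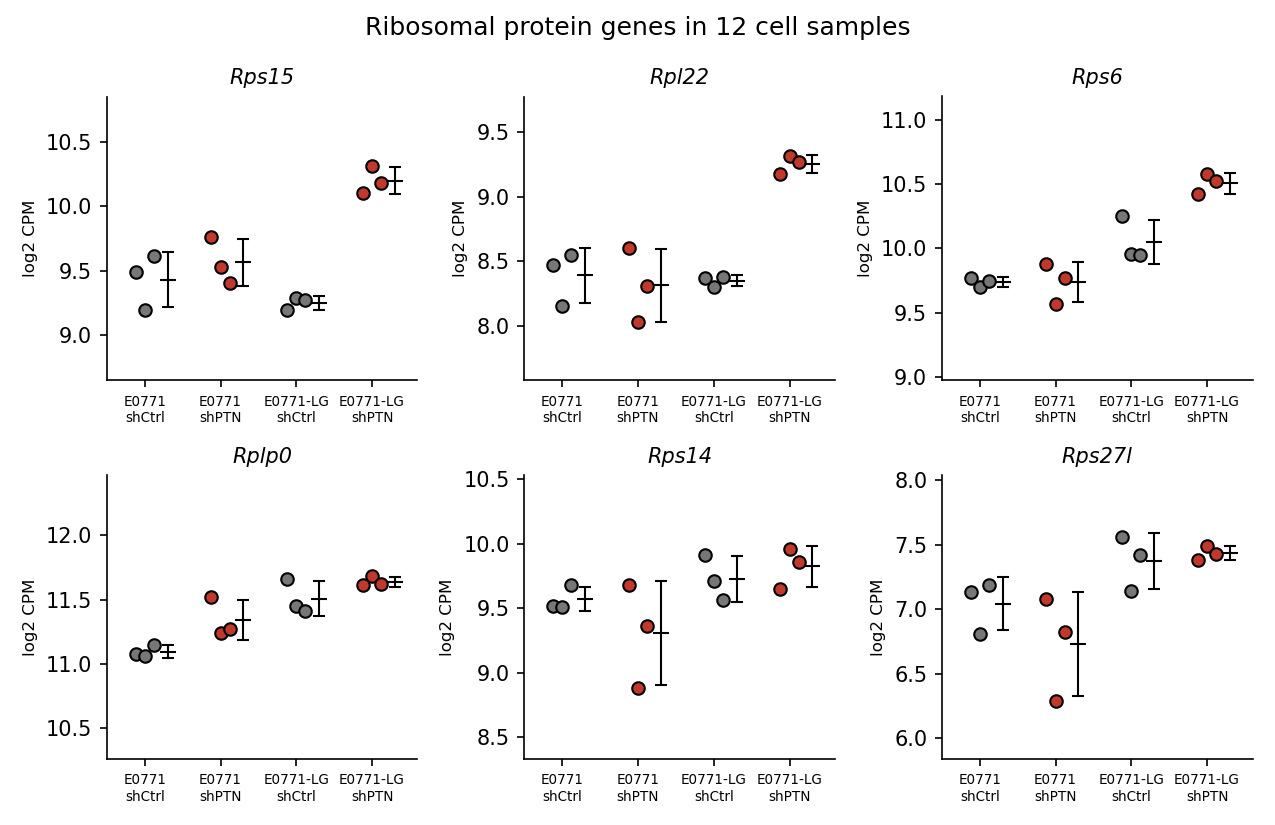
Log2 CPM (vertical axis) of 6 ribosomal protein genes in the 12 cell samples, with points for samples and the group mean ± 1 SD beside them (n = 3). Rps15, Rpl22 and Rps6 are highest in the 3 E0771-LG shPTN samples, while Rplp0, Rps14 and Rps27l overlap between the E0771-LG groups and have negative estimates after correction for length and GC content (-0.18, -0.52 and -0.49).

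Ribosome components outside the rule were also higher in E0771-LG shPTN cells. Fau, a ubiquitin-like fusion with a small subunit protein, read 9.13, 9.31 and 9.18 in shCtrl and 10.00, 10.21 and 10.06 in shPTN (0.88 ± 0.09, limma adjusted p = 6.41e-05), and lost its call after correction for length and GC content (0.15, adjusted p = 0.163). The scaffold protein Rack1 was at 0.53 ± 0.09 (limma adjusted p = 7.57e-04). Of the paralogs outside the rule, Rpl22l1 rose by 1.17 ± 0.22 (limma adjusted p = 0.00151; 0.62 after correction, adjusted p = 0.0509), and Rpl7l1 (0.04) and Rpl36al (0.23) were not called and turned negative after correction (-0.27 and -0.34). The 32 pseudogene entries tested, whose sharing of reads with the members was not measured, had 18 higher and 0 lower (median 0.50), where 24.3% of all genes were higher and 22.1% lower. With correction for length and GC content 0 of them were higher and 3 lower, with a median of -0.05, where 16.4% of all genes were higher and 20% lower. The 13 members found by the start search had a median of 0.70, from 0.42 to 1.16. The 43 matched members that it did not find, some with long pyrimidine runs, had 0.65, from 0.06 to 0.98.

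Of the 7 markers of mammary epithelium, limma tested 3 in this line. It called Krt18 (3.00), Krt8 (1.57) and Epcam (0.46, adjusted p = 0.0381) higher in shPTN cells, and 2 of these 3 after correction for length and GC content. Krt18 averaged -0.20 log2 CPM in shCtrl and 2.79 in shPTN cells and was tested only because its shPTN values passed the filter. Cdh1, Krt14, Krt19 and Krt5 were too low for the filter. The summed CPM of the 7 marker genes was 158, 204 and 164 in E0771-LG shCtrl and 424, 565 and 516 in shPTN samples, Krt8 being the most abundant in all 6. The 11 leukocyte markers summed to 5.78, 10.5 and 9.89 in shCtrl and 10.1, 18.4 and 16.1 in shPTN, with 4 to 7 of the 11 at the floor in each sample, so leukocyte RNA was close to absent in these cultures. Of the 2 that limma tested, Lyz2 was called higher in shPTN (1.27 ± 0.28, adjusted p = 0.00422) and S100a8 was not called (0.43, adjusted p = 0.331). The 7 fibroblast markers summed to 92.0, 145 and 107 in shCtrl and 58.3, 66.2 and 73.6 in shPTN, sums led by Pdgfra. They did not move together, since limma called Col1a1 (-4.68) and Pdgfra (-0.68) lower and Dcn (1.64, adjusted p = 0.0486) higher. Col1a1 averaged 3.40 log2 CPM in shCtrl and -1.28 in shPTN cells, and Dcn -0.32 and 1.33. Each of these 2 needed its higher group to pass the filter. Fabp4, the adipocyte marker, was at 10.9, 18.3 and 12 CPM in shCtrl and 1.18, 3.93 and 3.04 in shPTN samples and fell by 2.46 (limma adjusted p = 0.0017). Of the 2 skeletal muscle markers tested, Acta1 was lower (-1.20, limma adjusted p = 0.0292). Mylpf went the other way and was not called (1.09 ± 0.54, limma adjusted p = 0.121). The endothelial marker Cdh5 was not called (0.22, limma adjusted p = 0.767). The part of these differences in the ribosomal protein result was not tested.

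**Figure D4:**
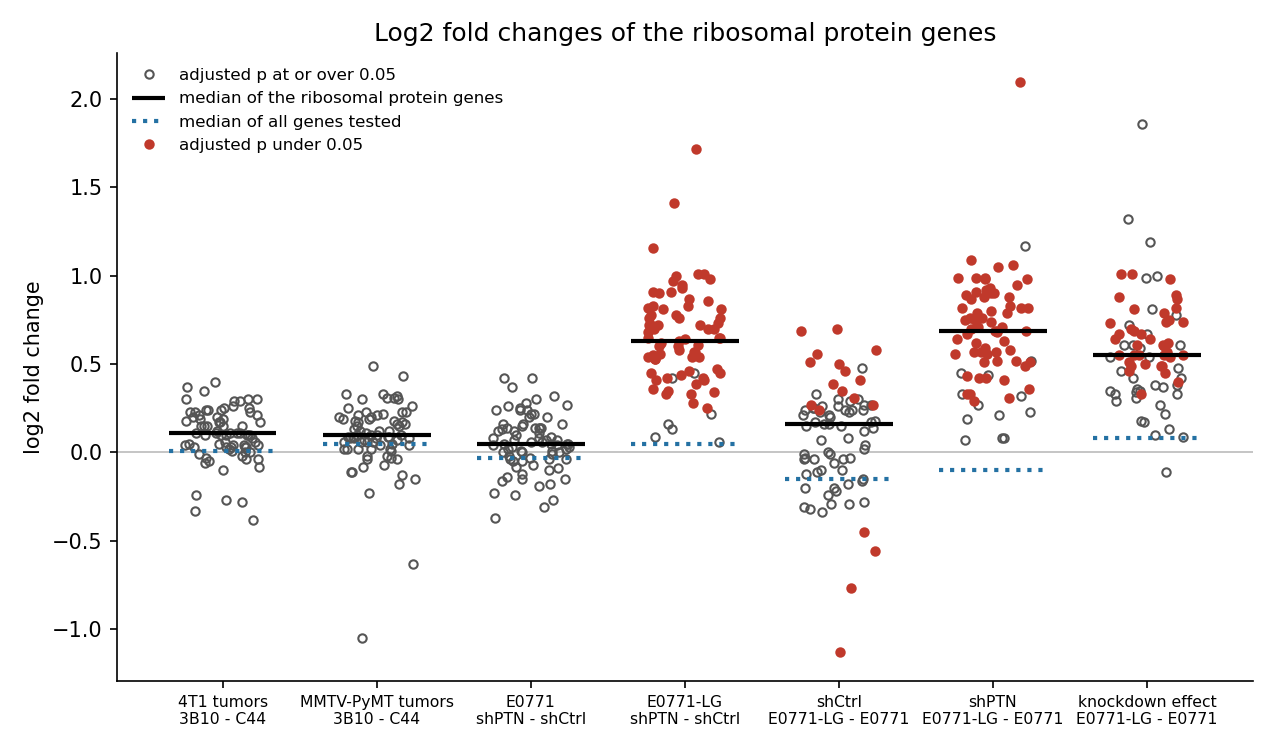
Log2 fold changes of the ribosomal protein genes in each comparison (vertical axis), 1 point per gene, filled red where limma's adjusted p was under 0.05, with black lines for their medians and dotted lines for the medians of all genes tested. In E0771-LG 70 of 77 points are filled, or 21 higher and 8 lower after correction for length and GC content, and in E0771 and both tumor models 0 are filled.

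The same contrast in the parental E0771 line gave no member past the threshold. The members held 5.19%, 4.41% and 5.44% of the signal in shCtrl and 6.11%, 4.53% and 5.05% in shPTN samples. These ranges overlapped, with replicate 2 lowest in both groups, and the means were 5.01% ± 0.535 and 5.23% ± 0.802 (SD, n = 3 each; exact two-sided permutation p = 0.8). By limma 0 of 77 members were higher and 0 lower, where 8.89% of 10394 genes were higher and 11.7% lower. At an unadjusted p under 0.05, 3 members were higher and 0 lower, where 34.1% of all genes passed in either direction. The smallest adjusted p of a member was 0.0501. The median was 0.05 over the members, from -0.37 to 0.42, and -0.03 over all genes, and it was -0.04 without shCtrl replicate 2 and -0.07 without shPTN replicate 1, where the difference of the share was also below 0, at -0.222 in the latter case. Without shPTN replicate 2, 4 members were higher, and without shPTN replicate 1, 1 was lower, with the share of all genes in these 2 fits not given here. After correction for length and GC content 5 were higher and 3 lower (Rpl36, Rps14 and Rps27l), where 13.2% of all genes were higher and 14.9% lower.

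The members at the ends of the E0771 range were widely spread between samples. Rps27 read 7.95, 7.30 and 8.08 in shCtrl and 8.29, 6.22 and 7.69 in shPTN, so that 1 low sample set its estimate of -0.37 ± 0.58, which was 0.22 without shPTN replicate 2. Rps27l and Rps14 followed at -0.31 ± 0.19 and -0.27 ± 0.17, and Rps14 was called lower without shPTN replicate 1 (-0.45, limma adjusted p = 0.0331). At the upper end stood Rps29 at 0.42 ± 0.37, Rpl21 at 0.42 ± 0.32 and Rpl41 at 0.37 ± 0.19, with limma adjusted p from 0.214 to 0.472. After correction for length and GC content Rps27l (-0.22), Rps14 (-0.30) and Rpl41 (0.30) were called. Rps15 read 9.49, 9.19 and 9.61 against 9.76, 9.53 and 9.40, and Rpl22 read 8.47, 8.15 and 8.55 against 8.60, 8.03 and 8.31, both overlapping. Rplp0 read 11.08, 11.06 and 11.15 in shCtrl and 11.52, 11.24 and 11.27 in shPTN, without overlap, and was not called. All shPTN samples lay above all shCtrl samples for 4 of the 77 members (5.19%), against 15.6% of all genes. They lay below for 0 members, against 19.7% of all genes. The epithelial markers were low in this line, summing to 99.3, 114 and 107 CPM in shCtrl and 115, 98.9 and 108 in shPTN samples, with 2 to 4 of the 7 at the floor. Leukocyte markers, of which 6 to 8 of 11 were at the floor, summed to 11.2, 13.0 and 13.1 in shCtrl and 45.7, 27.6 and 36.9 in shPTN samples, led by Lyz2. The fibroblast markers summed to 74.8, 101 and 86.3 CPM in shCtrl and 331, 293 and 330 in shPTN samples, with Col3a1 most abundant in the latter and 0 to 2 of the 7 at the floor, and the part of these differences in the members' values was not tested.

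Whether the knockdown effect differed between the lines was tested directly. In the limma fit of all 12 cell samples, 39 of 77 members had a higher effect in E0771-LG and 0 a lower one at an adjusted p under 0.05, where 18.3% of 10600 genes had a higher and 15.7% a lower one. At an unadjusted p under 0.05, 51 and 0 members passed, where 45.1% of all genes passed in either direction. The median difference was 0.55 over the members and 0.08 over all genes. Rpl36, a large subunit protein, had the largest difference that passed, at 1.01 ± 0.30 (limma adjusted p = 0.023). In E0771 it read 8.56, 7.99 and 8.72 in shCtrl and 8.67, 7.86 and 8.20 in shPTN, and in E0771-LG 7.89, 8.10 and 8.27 against 8.80, 9.10 and 8.84. Both E0771 groups had a low replicate 2, and the difference was not called without E0771 shCtrl replicate 1 (adjusted p = 0.0535) or 3 (0.0562), E0771 shPTN replicate 2 (0.0525) or E0771-LG shPTN replicate 2 (0.0592).

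Rpl9, also of the large subunit, differed by 1.01 ± 0.25 (limma adjusted p = 0.00825) and Rpl22 by 0.98 ± 0.18 (0.00118). Rpl9 read 9.14, 8.97 and 9.36 in E0771 shCtrl and 9.38, 8.49 and 8.91 in E0771 shPTN, which overlapped, and 9.13, 8.96 and 9.06 in E0771-LG shCtrl against 9.76, 9.99 and 9.73 in E0771-LG shPTN, which did not. Rpl5 (0.82), Rps15 (0.81), Rpl11 (0.70), Rps19 (0.87), Rps3 (0.49), Rps4x (0.55) and Rps6 (0.45) also passed. The count of 39 was 22 without E0771 shCtrl replicate 3 and 23 without E0771-LG shPTN replicate 2, with the share of all genes in these fits not given here. After correction for length and GC content 7 members were higher, all among the 39, and 6 lower, among them Rpl28, Rpl29, Rplp0, Rplp1 and Rps2, with a median of 0.07, where 14.2% of all genes were higher and 16.8% lower. Rpl36, Rpl9 and Rpl22 then read 0.32, 0.46 and 0.38 (limma adjusted p = 0.0498, 0.0163 and 0.0112), and Rpl36 was not called when the correction was fitted on the other genes (0.33, adjusted p = 0.0527).

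**Figure D5:**
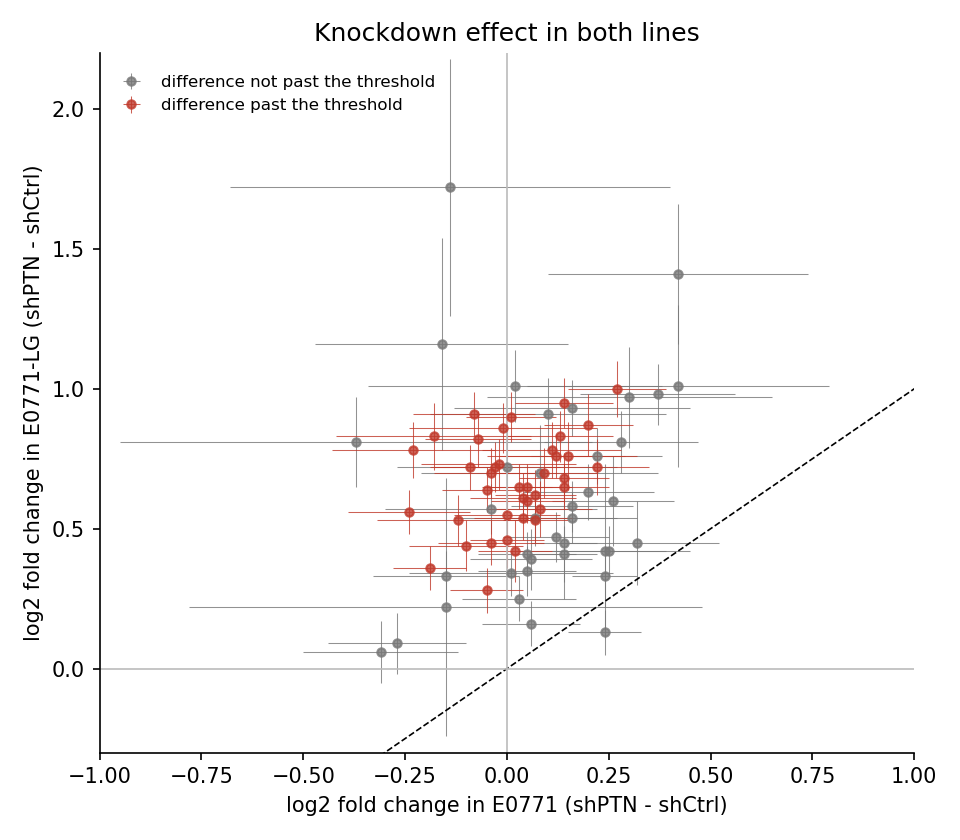
Log2 fold change of shPTN against shCtrl in E0771 (horizontal axis) and in E0771-LG (vertical axis) for each ribosomal protein gene, with bars of 1 SE, a dashed line where both are equal, and red where limma's test of the difference passed. Most points lie above the dashed line, 39 of 77 in red, or 7 higher and 6 lower after correction for length and GC content.

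Within transcript length classes, the difference of the knockdown effect had member medians of 0.60, 0.55, 0.55 and 0.58 from the shortest class up, against 0.67, 0.55, 0.34 and 0.06 for the other genes. Of the members, 6 of 18, 20 of 42, 11 of 15 and 2 of 2 lay above the median of the other genes of their class, so members with short transcripts were mostly not above other short genes.

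The comparison of E0771-LG with E0771 asks how the metastasis-derived line differs from its parent. It uses the same samples as the knockdown contrasts, so its values and theirs are not independent and are set side by side. In shCtrl cells the members held 5.01% of the signal in E0771 and 5.43% in E0771-LG (exact two-sided permutation p = 0.3), a difference of 0.411 percentage points that was -0.0505 with quantile normalization. By limma 14 of 77 members were higher and 4 lower in E0771-LG, where 19.2% of 10411 genes were higher and 35.3% lower. The median was 0.16 over the members and -0.15 over all genes. The median over all genes moved to 0.00 with median-of-ratios scaling or quantile normalization and to 0.05 with correction for length and GC content. The member median was 0.31 with median-of-ratios scaling, 0.02 with quantile normalization and 0.23 with correction. Of all calls, 35.3% were higher, against 50.1% with median-of-ratios scaling, 51.4% with quantile normalization and 54.2% with correction, and the members then counted 35 higher and 2 lower, 10 and 8, and 28 and 4. In the same order, 27.3% of all genes were higher and 27.2% lower, 27.2% and 25.7%, and 31% and 26.2%. Without E0771 shCtrl replicate 2 the members counted 9 higher and 12 lower, and without E0771 shCtrl replicate 1 or 3 or E0771-LG shCtrl replicate 1 or 2 the lower count was 2. The share of all genes called in these fits is not given here, so their counts are not read as results about the members.

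Members of both subunits were on each side. Rpl27 read 8.88, 8.64 and 8.92 in E0771 shCtrl and 9.66, 9.41 and 9.44 in E0771-LG shCtrl cells, and Rpl26, known to bind p53 mRNA, read 8.84, 8.72 and 8.82 against 9.56, 9.31 and 9.26. Both were without overlap, at 0.69 ± 0.11 and 0.58 ± 0.10 (limma adjusted p = 4.70e-04 and 9.45e-04). Rpl10 was lower in E0771-LG, at 11.44, 11.22 and 11.50 against 10.89, 10.77 and 10.81, again without overlap (-0.56 ± 0.10, limma adjusted p = 8.55e-04). Rplp0 (0.41), Rps3 (0.39), Rps4x (0.51) and Rps6 (0.31) were higher in E0771-LG. Rps21 fell by 0.77 (SE 0.23, limma adjusted p = 0.0239), at 8.32, 7.58 and 8.41 against 7.09, 7.34 and 7.56, and Rps10 fell by 1.13 (SE 0.42, limma adjusted p = 0.0413). Rps21 lost its call without any 1 of E0771 shCtrl replicates 1 and 3 and E0771-LG shCtrl replicates 1 and 2 (adjusted p = 0.0783, 0.0653, 0.0989 and 0.0697), and Rps10 without any 1 of the same 4 (0.165, 0.0927, 0.105 and 0.0554), and also with median-of-ratios scaling (-0.98, 0.0626), quantile normalization (-0.57, 0.256) or correction (-0.95, 0.0516). Rpl7a was called at 0.70 ± 0.24 (limma adjusted p = 0.0437) with overlapping groups, and not without E0771 shCtrl replicate 2 (0.0768) or 3 (0.0721) or E0771-LG shCtrl replicate 2 (0.129) or 3 (0.0797), nor with quantile normalization (0.64, 0.0746).

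In shPTN cells the line difference was larger. The members held 5.23% ± 0.802 of the signal in E0771 and 8.02% ± 0.432 in E0771-LG (exact two-sided permutation p = 0.1), without overlap. By limma 64 of 77 members were higher and 0 lower in E0771-LG, where 26.2% of 10508 genes were higher and 37.7% lower. At an unadjusted p under 0.05, 67 members were higher and 0 lower, where 67.3% of all genes passed in either direction. The median was 0.69 over the members, from 0.07 to 2.10, and -0.10 over all genes, or 0.01 with median-of-ratios scaling. Of all calls 41.0% were higher, against 51.7% with correction for length and GC content, with which 42 members were higher and 5 lower (Rpl10, Rpl35a, Rpl36a, Rps2 and Rps21) and the median was 0.27, where 32% of all genes were higher and 29.8% lower. From the shortest length class up, 6 of 18, 34 of 42, 15 of 15 and 2 of 2 members lay above the median of the other genes of their class (0.70, 0.45, 0.19 and -0.12).

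Rps27a was again the highest, at 7.79, 7.74 and 7.27 in E0771 shPTN and 10.04, 8.94 and 10.10 in E0771-LG shPTN cells (2.10 ± 0.33, limma adjusted p = 0.0013). Rpl38, known for a role in translation of Hox mRNAs, rose from 7.80, 7.03 and 7.30 to 8.32, 8.66 and 8.41 (1.09 ± 0.17, limma adjusted p = 4.40e-04). Both were without overlap. Rps27 had 1.17 ± 0.55 and was not called (limma adjusted p = 0.118), but was at 0.58 (adjusted p = 0.00711) without E0771 shPTN replicate 2 and was called in the joint fit (0.0145) and without robust variances (0.0214). At the lower end Rps2 (0.07 ± 0.13), Rpl17 (0.08 ± 0.62) and Rpl36a (0.08 ± 0.18) were not called, and all 3 turned negative without E0771 shPTN replicate 2 (-0.09, -0.33 and -0.14) and after correction for length and GC content (-0.20, -0.44 and -0.54), Rps2 also with quantile normalization (-0.22). Rpl36a was also negative without E0771-LG shPTN replicate 2 (-0.02), and Rpl17 without E0771-LG shPTN replicate 3 (-0.42). The line difference in shPTN cells and that in shCtrl cells are 2 sides of the same 12 samples as the knockdown effects, and the test of the difference between lines given above covers both.

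The antibody comparisons ask how tumors differ after pleiotrophin is blocked. In 4T1 tumors no member passed the threshold. They held 4.78%, 4.85% and 6.16% of the summed signal in C44 tumors and 6.49%, 5.29% and 5.25% in 3B10 tumors. C44 replicate 3 lay above 2 of the 3 3B10 samples, and the means were 5.26% ± 0.782 and 5.68% ± 0.705 (SD, n = 3 each; exact two-sided permutation p = 0.5). By limma 0 of 76 members tested were higher and 0 lower, as were 0% of the 11467 genes in either direction. At an unadjusted p under 0.05, 1 member was higher and 1 lower, where 6.27% of all genes passed in either direction. The median was 0.11 over the members and 0.01 over all genes, and both were 0.02 with correction for length and GC content.

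Rpl27 had the highest estimate in 4T1 tumors, at 3.52, 3.26 and 3.54 (log2, per length) in C44 and 4.13, 3.51 and 3.89 in 3B10 samples (0.40 ± 0.20), followed by Rpl5 (0.37 ± 0.22) and Rpl28 (0.35 ± 0.17). The lowest 3B10 sample of Rpl27 lay within the range of the C44 samples. Rps7 was lowest, averaging 7.15 ± 0.21 in C44 and 6.77 ± 0.20 in 3B10 samples (SD, n = 3 each; -0.38 ± 0.16), without overlap, followed by Rps13 (-0.33) and Rps12 (-0.28), and the limma adjusted p of these 6 ran from 0.768 to 0.902. Rps6 read 1.72, 2.04 and 2.43 in C44 and 2.49, 2.12 and 2.30 in 3B10 tumors, and Rplp0 read 10.27, 10.26 and 10.46 against 10.60, 10.29 and 10.41, both overlapping. Of the leukocyte markers, 0 of 11 were called by limma, and all 11 estimates were below 0. Their sum was 14600, 13300 and 15700 in C44 and 8790, 10600 and 6190 in 3B10 samples, led by Lyz2 or Cd74. The 7 epithelial markers summed to 3220, 3490 and 3470 in C44 and 4970, 4510 and 5120 in 3B10 samples, led by Krt18. Skeletal muscle markers were present in small amounts, their 4 genes summing to 12.7, 11.8 and 27.1 in C44 and 39.4, 167 and 254 in 3B10 samples, led by Tnnt3 or Acta1. The part of these values in the ribosomal protein estimates was not tested.

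In MMTV-PyMT tumors no member was called either. The share of the signal was 5.98%, 4.07% and 3.74% in C44 and 4.90%, 4.31% and 5.10% in 3B10 tumors. C44 replicate 1 lay above all 3B10 samples and the other 2 C44 samples below them, so the C44 group was the wider (means 4.60% ± 1.20 and 4.77% ± 0.406, SD, n = 3 each; exact two-sided permutation p = 0.9). By limma 0 of 76 members were higher and 0 lower, as were 0% of the 11361 genes in either direction. At an unadjusted p under 0.05 the members also counted 0 and 0, where 2.7% of all genes passed in either direction. The median was 0.10 over the members and 0.05 over all genes, and -0.04 without C44 replicate 3. The difference of the share, 0.171 percentage points, was -0.256 without that sample and also below 0 without C44 replicate 2.

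The lowest estimates in MMTV-PyMT tumors each came from 1 sample. Rps18, at the small subunit head, read 9.34, 8.61 and 8.42 in C44 and 8.98, 8.66 and 5.59 in 3B10 tumors, and its log2 fold change of -1.05 ± 0.83 was 0.03 without 3B10 replicate 3. Rps2, which sits at the mRNA entry site, read 7.86, 7.36 and 9.53 against 7.53, 7.64 and 7.69, and its -0.63 ± 0.50 was 0.02 without C44 replicate 3. Rpl26 had -0.23 ± 0.24, which was 0.02 without C44 replicate 1, the sample with the highest share. At the upper end were Rplp1 at 0.49 ± 0.29, Rps10 at 0.43 ± 0.43 and Rpl29 at 0.33 ± 0.28. Rplp1 read 9.95, 9.37 and 8.91 in C44 and 9.72, 9.68 and 10.29 in 3B10 tumors, and like Rps6 (10.44, 9.86 and 9.68 against 10.07, 9.84 and 10.28) its groups overlapped.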

How the data were processed

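The authors sequenced paired ends on an Illumina HiSeq, aligned reads with HISAT2 to mm10 (GRCm38) and counted them with featureCounts; edgeR and limma are named in the submitters' processing notes, and versions are not given in the sources used here. The deposited table holds log2 values. In 18 samples these gave whole reads for 100% of genes (within 0.1 of a whole number); the 4T1 scale and depth are unknown. Each comparison was fitted with limma 3.58.1 (R 4.3.3; eBayes with trend and robust) on its own 6 samples, 12 for the difference between lines, with no offset added, on genes at least 1 above the sample's lowest value off the log scale in 3 samples, with Benjamini-Hochberg adjustment over all genes. The share used exact permutation tests. The code was tested on simulated data. Length, GC content and positions came from GENCODE M21 and starts from RefSeq; length and GC were corrected with splines of 5 degrees of freedom. Members named were 16 subunit genes and paralogs with known roles, the 3 lowest and 3 highest per comparison and up to 3 passing the test of the difference; others are marked. Members and lists were chosen with earlier results of these data known. Alternatives were other filters, scalings, weights, a replicate block, the corrections and leaving out each sample. Figures were drawn with matplotlib 3.10.9.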

Additional observations from a re-analysis of the deposited data

Results flagged for a closer look

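The knockdown effect differed between the cell lines by a test of the difference itself. Of the 77 ribosomal protein genes, 39 had a higher effect in E0771-LG and 0 a lower one by limma, where 18.3% of all genes had a higher and 15.7% a lower one. At an unadjusted p under 0.05 there were 51 and 0 members, where 45.1% of all genes passed in either direction. After correction for length and GC content 7 members had a higher and 6 a lower effect, with a median of 0.07 in place of 0.55, where 14.2% of all genes were higher and 16.8% lower. The differences that were largest among those passing were 1.01 for Rpl36, 1.01 for Rpl9 and 0.98 for Rpl22 on the log2 scale, or 0.32, 0.46 and 0.38 after that correction. The E0771-LG shPTN samples also favoured short transcripts, and what caused that was not tested.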

How the results depend on the processing

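Alternatives changed 1 choice at a time, except for the block with correction, and the correction fitted on the other genes was chosen after seeing the data. Where no cause is given below, the cause was not tested. Among 110 values of named genes, 2079 comparisons with an alternative left 1848 on the same side, 129 weaker, 26 stronger and 76 reversed. Voom weights and the joint fit of 18 samples were not run for 4T1 tumors, whose reads and scale are not known. Depth cannot be judged there, and 3 samples per group limit each test. The share of all genes called is not given here for fits that leave out a sample. It is also not given for the joint fit, voom weights or no filter. Member counts from these fits are therefore not read as results about the members.

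In E0771 cells, where 0 members were called, 1 was higher without a filter, 1 with median-of-ratios scaling, 1 with voom weights and 5 with correction for length and GC content, fitted on all or on the other genes. There 1 was lower with quantile normalization and 3 with either correction. Of all genes, 9.86% were higher and 10.4% lower with median-of-ratios scaling and 10.4% and 10.8% with quantile normalization. With correction fitted on all genes these shares were 13.2% and 14.9%. Leaving out each sample gave 0 to 4 higher and 0 to 1 lower, a median from -0.07 to 0.17 and a share difference from -0.222 to 0.565. In E0771-LG cells quantile normalization gave a median of 0.54 and a share difference of 2.03. Correction gave 21 higher, 8 lower and a median of 0.13, and 23, 7 and 0.15 when fitted on the other genes. Of all genes, 16.4% were then higher and 20% lower, and 16.5% and 19.9% when fitted on the other genes. Leaving out each sample gave 59 to 69 higher, a median from 0.58 to 0.67 and a share difference from 2.35 to 2.76.

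Between the lines in shCtrl cells, the joint fit gave 8 higher. Median-of-ratios scaling gave 35 higher, 2 lower and a median of 0.31, quantile normalization 8 lower and a share difference of -0.0505, and either correction 28 higher. In the same order, 27.3% of all genes were higher and 27.2% lower, 27.2% and 25.7%, and 31% and 26.2%. Leaving out each sample gave 9 to 14 higher, 2 to 12 lower, a median from 0.01 to 0.23 and a share difference from 0.11 to 0.622. In shPTN cells either correction gave 5 lower and a median of 0.27, with 42 higher when fitted on all genes, and quantile normalization a share difference of 1.9. With correction fitted on all genes, 32% of all genes were higher and 29.8% lower. Leaving out each sample gave 54 to 69 higher, a median from 0.60 to 0.81 and a share difference from 2.44 to 3.23. For the difference of the knockdown effect, correction gave 7 higher, 6 lower and a median of 0.07, or 6, 5 and 0.07 when fitted on the other genes, and leaving out each sample 22 to 55 higher and a median from 0.45 to 0.69. With correction, 14.2% of all genes were higher and 16.8% lower, or 14.2% and 16.7% when fitted on the other genes. In tumors leaving out each sample gave 0 calls, medians from 0.02 to 0.20 (4T1) and -0.04 to 0.33 (MMTV-PyMT) and share differences from 0.0106 to 0.869 and -0.256 to 0.86.

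Estimates in E0771-LG cells that changed sign with quantile normalization were Rps14 (-0.04), Rpl36al (-0.19), Mtor (0.00) and Eef1a1 (0.00). With correction fitted on all genes, and in parentheses on the other genes, Rps27l read -0.49 (-0.48), Rps14 -0.52 (-0.51), Rplp0 -0.18 (-0.18), Rplp1 -0.39 (-0.37), Rplp2 -0.08 (-0.07), Rpsa -0.02 (-0.02), Rpl3 -0.03 (-0.02), Rps12 -0.13 (-0.11), Rpl7a -0.03 (-0.02), Rpl17 -0.25 (-0.24), Rpl7l1 -0.27 (-0.27), Rpl36al -0.34 (-0.33), Mtor 0.19 (0.19), Eef1a1 -0.06 (-0.06) and Fbl -0.35 (-0.35). The block with correction gave the same values as the correction on all genes. Leaving out each sample, the range crossed 0 in E0771-LG cells for Rpl17 (-0.28 to 0.51, with 0.00 in 1 case), Rps27l (-0.06 to 0.15), Rpl7l1 (-0.05, and -0.01 in another case, to 0.11), Mtor (-0.19 to 0.03, with 0.01 in another case) and Rpl36al (-0.04 to 0.38). It did so in MMTV-PyMT tumors for Rpl26 (-0.40 to 0.02), Rps18 (-1.66 to 0.03) and Rps2 (-1.07 to 0.02), and in E0771 cells for Rps27 (-0.82 to 0.22). Between the lines in shPTN cells, Rps2 read -0.22 with quantile normalization, and Rps2, Rpl17 and Rpl36a read -0.20, -0.44 and -0.54 with correction on all genes, with or without the block, and -0.20, -0.42 and -0.52 on the other genes. Leaving out each sample they ran from -0.09 to 0.21 (Rps2), -0.42 to 0.52 (Rpl17, with -0.33 in another case) and -0.14 to 0.24 (Rpl36a, with -0.02 in another case).

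The replicate numbers of the labels were also used as a block. Samples of equal number in the 2 groups correlated, after group means were removed, at -0.33, 0.44 and -0.25 in 4T1, -0.04, 0.13 and 0.21 in MMTV-PyMT, -0.03, 0.14 and -0.04 in E0771 and 0.16, 0.24 and -0.12 in E0771-LG, so pairing by number was not seen. Of the 3 samples of the first group, 1, 1, 1 and 2 correlated best with their own number. In parentheses are the percent of all genes higher and lower. With the block, members counted 3 higher and 1 lower in E0771 (9.97, 13.6) and 69 and 0 in E0771-LG (25.3, 22.9). Between the lines they counted 15 and 5 in shCtrl (20.3, 37.2) and 63 and 0 in shPTN (23.9, 34.9). The difference had 38 and 0 (18.7, 16), and tumors had 0. With block and correction members counted 4 and 2 in E0771 (11.6, 13.3) and 24 and 7 in E0771-LG (18, 22.4), with a median of 0.13 in the latter. They counted 36 and 7 in shCtrl (32.5, 27.2), 41 and 5 in shPTN (30.7, 28.4), with a median of 0.27 in the latter, and 6 and 6 for the difference (14.3, 17.2).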

Other observations

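Other gene groups of protein synthesis differed in their counts. In E0771-LG shPTN against shCtrl cells, where 24.3% of all genes were higher and 22.1% lower, 38 of 76 mitochondrial ribosomal protein genes were higher and 2 lower (median 0.31), with Mrps21 at 0.96 and Mrpl3 at -0.47 among those called, both no longer called after correction for length and GC content (0.34 and -0.29). Other genes with transcripts of 500 to 1000 and 1000 to 2000 bases were higher in 59% and 41.4% of cases. After the correction 19 of the 76 were higher and 14 lower (median 0.08), where 16.4% of all genes were higher and 20% lower. A TOP list of translation factors and other genes, the latter including Npm1, Tpt1 and Nap1l1, had 11 of 23 higher and 3 lower (median 0.25). Eif4a2 was at 1.13, Npm1 at 0.83, Tpt1 at 0.39 (0.01 after correction) and Nap1l1 at -1.58. Eef1a1 (0.12, and -0.06 after correction for length and GC content) and Eef2 (-0.08) were not called by limma. After correction 5 of the 23 were higher and 3 lower (median 0.01). Ribosome biogenesis factors had 10 of 47 higher and 10 lower (median -0.08), and 7 and 12 after correction, from Gnl3 at 0.84 to Tsr1 at -1.27, with Fbl at 0.13 (-0.35 after correction) and Ncl at 0.30 (0.63 and called after correction). Of 28 regulators, 3 were higher and 8 lower (median -0.24), and 6 and 8 after correction, from Ssb at 0.73 to Deptor, an inhibitor of mTOR, at -1.63. Eif4ebp1, which restrains cap-dependent translation, was higher at 0.63, and Myc (-0.20), Mtor (-0.05) and Larp1 (-0.29) were not called, Myc being called lower after correction (-0.65, limma adjusted p = 0.00162). In both tumor models limma called 0 genes of each of these groups, as it did over all genes.

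Between the lines in shCtrl cells, 31 of 47 biogenesis factors were higher in E0771-LG and 0 lower (median 0.54), with Ftsj3 at 1.26, where 19.2% of all genes were higher and 35.3% lower. Of all calls there 35.3% were higher, against 50.1% to 54.2% with other scalings or correction, with which 32 to 39 of the 47 factors were higher and 0 lower. Of the 28 regulators, 8 were higher and 11 lower, from Zfp622 at 0.86 to Mxd4, a Myc antagonist, at -2.55. Of the 23 genes of the TOP list, 9 were higher and 1 lower, from Npm1 at 1.07 to Eif4a2 at -1.12. That list counted 16 and 1 with median-of-ratios scaling, 15 and 1 with correction and 4 and 4 with quantile normalization. Over the 12 cell samples, the genes outside the lists whose log2 values most resembled the mean of the members were Ndufa4, Ndufb7, Cdk1, Ndufab1 and Atp6v1g1, with Pearson r from 0.976 to 0.983 among 10296 genes; the samples of a group share its condition, and these are descriptions.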
